A study of Mus musculus with 6 samples.

Results

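The BCL2 family of apoptosis regulators was followed through 10 genes: the anti-apoptotic Bcl2, Bcl2l1, Bcl2l2 and Mcl1, the BH3-only Bcl2l11, Bbc3, Bmf and Bik, and the effectors Bax and Bak1. They were chosen by name, and their rows were found by matching Ensembl identifiers to GENCODE M21 symbols on GRCm38. All 10 were among the 51826 gene rows of the count table, and all 10 passed the filter on low counts that left 14996 genes. RNA came from 3 libraries of wildtype mouse embryonic stem cells (ESC, line V6.5) and 3 libraries of wildtype epiblast-like cells (EpiLC) made from the same line. Both states were grown in serum-containing Knockout DMEM. The ESC also received LIF and 2i, a pair of GSK3 and MEK inhibitors that holds naive pluripotency, and the EpiLC were at day 3 without LIF and 2i. EpiLC resemble the early post-implantation epiblast. Both states rest on 1 cell line, and the labels do not say whether replicates were separate cultures, so p-values measure only the spread between these libraries, which may be technical.

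The family decides at the outer membrane of the mitochondrion whether a cell dies by apoptosis. Effector proteins can oligomerise there and open pores that release cytochrome c. Anti-apoptotic proteins bind and restrain them, and BH3-only proteins, which carry a short helix called the BH3 domain, occupy the binding groove of the anti-apoptotic proteins or activate the effectors directly. Pluripotent cells are known for sitting close to this threshold, and the mouse embryo requires MCL1 around implantation.

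A BH3 core was found in the coding sequence of each member, so its coding stretch is shown for each of them. In each line the capitals mark the 8 codons of the core and the lower-case letters the 9 coding bases on either side, 5′ to 3′ on the coding strand, from the longest GENCODE M21 reading frame that holds the core.

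Bcl2: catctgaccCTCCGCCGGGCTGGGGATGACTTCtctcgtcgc
Bcl2l1: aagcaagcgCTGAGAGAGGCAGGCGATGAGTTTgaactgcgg
Bcl2l2: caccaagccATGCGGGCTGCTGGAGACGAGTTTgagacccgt
Mcl1: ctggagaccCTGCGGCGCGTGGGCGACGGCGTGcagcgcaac
Bcl2l11: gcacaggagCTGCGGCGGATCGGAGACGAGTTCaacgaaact
Bbc3: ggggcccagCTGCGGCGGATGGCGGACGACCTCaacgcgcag
Bmf: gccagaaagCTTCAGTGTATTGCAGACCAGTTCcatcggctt
Bik: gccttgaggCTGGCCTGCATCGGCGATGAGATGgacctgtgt
Bax: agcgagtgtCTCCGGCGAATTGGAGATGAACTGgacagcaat
Bak1: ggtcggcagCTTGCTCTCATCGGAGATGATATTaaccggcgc

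Codon 6 of the core began with GA in all 10 genes. Codon 5 began with GG in 8 genes and with GC in the other 2, Bbc3 and Bmf, which are both BH3-only. The closest pair over the 24 core bases was Bcl2l11 and Bbc3, with 19 identical bases. Gene counts do not separate the splice forms of a gene. The core was found in 1 of 3 coding transcripts of Bbc3, 6 of 8 of Bcl2l1 and 4 of 5 of Bcl2l11. Transcripts whose annotated frame does not begin with ATG were counted but not searched, so the others need not lack the core.

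Of the 10 members, 5 were higher in EpiLC (Bcl2, Mcl1, Bcl2l11, Bbc3 and Bik), 3 were lower (Bcl2l1, Bmf and Bak1) and 2 were not called (Bcl2l2 and Bax) by edgeR's quasi-likelihood test at a Benjamini-Hochberg adjusted p under 0.05. Among all genes tested 64.6% were called, 32.0% higher and 32.6% lower, so a call alone was common in this comparison. When ESC replicate 3 was left out, 5 members were higher and 4 lower, with Bax joining the lower ones, while calls over all genes went up to 76.7% (38.0% higher and 38.7% lower). At least 2-fold differences were called in 3 members (Bcl2, Bcl2l11 and Bik), each higher in EpiLC, beside 29.4% of all genes in either direction. The libraries of the 2 states did not overlap in 7 members, beside 70.2% of all genes. The median log2 fold change of the members was 0.28, against 0.01 over all genes tested, and their median absolute value was 0.62, against 0.53. Levels are given as CPM, each count set against its library total after TMM scaling and multiplied to a fixed total, and log2 fold changes are EpiLC minus ESC. Folds and log2 fold changes are those fitted by edgeR, which can differ from the ratio of the mean CPM.

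**Figure D1:**
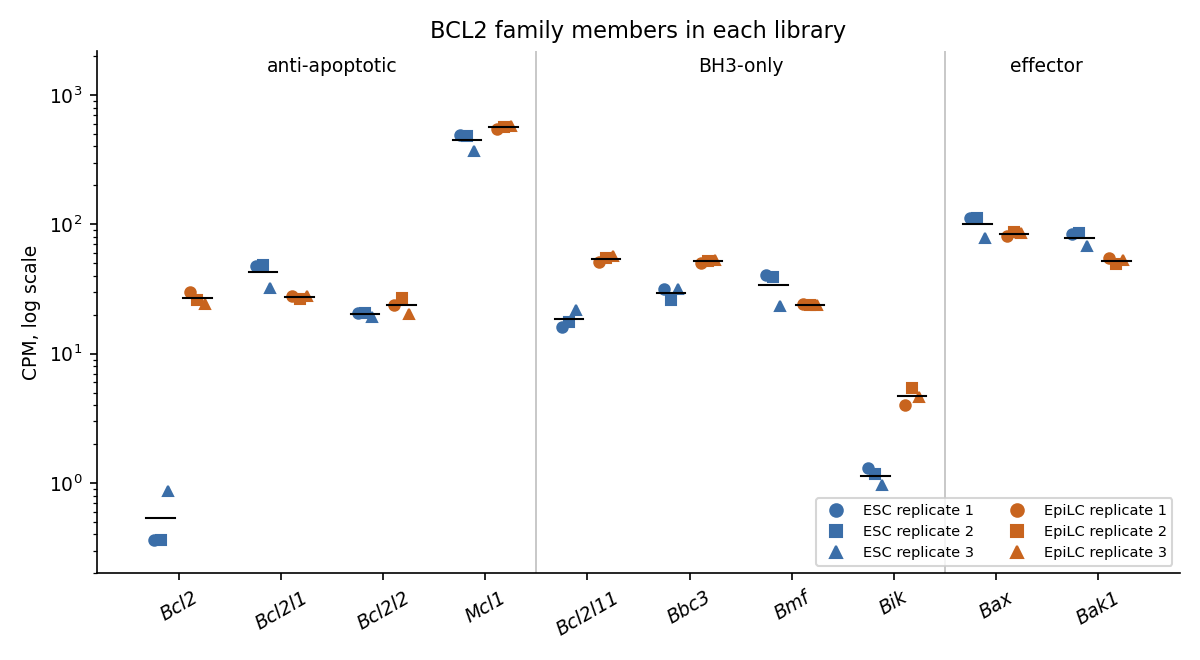
CPM of the 10 members on a log axis, with 1 symbol per library (circle, square and triangle for replicates 1, 2 and 3), ESC in blue and EpiLC in orange, and a black line at the mean of each group (n = 3). Bcl2 is below 1 CPM in the ESC libraries and at 24.3 to 29.8 CPM in the EpiLC libraries, while Mcl1 is the highest member in both states.

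ESC replicate 3 stood apart from the other ESC libraries, measured by chi-square divided by its degrees of freedom, which was 25.7 and 26.1 against replicates 1 and 2, 2.58 between those, and 2.17 to 4.11 between EpiLC pairs. Library totals ran from 9710410 to 22879812 counts, so that 3 counts, the most that a count of 0 leaves possible by counting error alone, came to 0.135 to 0.301 CPM. The labels were checked with marker lists: all 6 naive markers were lower and all 6 formative markers higher in EpiLC without overlap, with summed naive levels of 2936 to 3189 CPM in ESC and 284 to 293 CPM in EpiLC. Of 7 feeder or fibroblast markers, 5 were higher in EpiLC without overlap, with summed levels of 3.48 to 4.24 CPM in ESC and 13.1 to 17.0 CPM in EpiLC. Dcn and Postn were at 0 in ESC and Lum at 0 in EpiLC. The 5 primitive endoderm markers summed to 4.41 to 9.23 CPM in ESC and 6.84 to 8.13 CPM in EpiLC. The part of such cells in the values below was not tested, and in bulk RNA fewer expressing cells and less RNA per cell cannot be told apart.

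Among the anti-apoptotic genes, Bcl2 changed most. Bcl2 encodes the founding member of the family, a guardian of the outer membrane that many differentiated cells use (chromosome 1, 106538178 to 106714274, minus strand). The ESC libraries held 7, 8 and 10 counts, or 0.36, 0.36 and 0.87 CPM in replicate order, against 29.8, 26.1 and 24.3 CPM in the EpiLC libraries. Each EpiLC library was far above each ESC library, and ESC replicate 3 was the highest of its group. The mean rose from 0.53 ± 0.29 to 26.7 ± 2.82 CPM (SD, n = 3 libraries each), a ratio of 50.3, and the fold fitted by edgeR was 55.1 (log2 fold change 5.78, SE 0.24, 95% interval 5.24 to 6.33, adjusted p = 4.90e-07). Among the 14996 genes tested, 98.5% had a smaller absolute change. An antisense gene, D630008O14Rik, overlaps 6.09% of the Bcl2 exon length and had 1 count in all ESC libraries together and 1 in all EpiLC libraries.

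Bcl2l1, which encodes BCL-XL (chromosome 2, 152780668 to 152831728, minus strand), moved the other way. Its levels were 47.8, 48.8 and 32.5 CPM in ESC replicates 1 to 3 and 28.1, 26.3 and 28.1 CPM in the EpiLC. All EpiLC libraries were below all ESC libraries, and ESC replicate 3 lay between the other ESC libraries and the EpiLC. The mean fell 1.58-fold, from 43.0 ± 9.15 to 27.5 ± 1.07 CPM (-0.66 ± 0.15 SE on the log2 scale, edgeR adjusted p = 0.00548).

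Mcl1 encodes a short-lived guardian that depends on steady synthesis (chromosome 3, 95658788 to 95663176, plus strand). It was at 490, 484 and 371 CPM in ESC replicates 1 to 3 and at 543, 568 and 572 CPM in EpiLC. The groups did not overlap, and ESC replicate 3 was the lowest library. The mean rose 1.25-fold, from 448 ± 66.8 to 561 ± 15.8 CPM (0.32 ± 0.11 SE on the log2 scale, edgeR adjusted p = 0.0256). That call was lost without EpiLC replicate 1, 2 or 3 (adjusted p = 0.0532, 0.0756 and 0.0859 by edgeR) and with no low count filter (0.121), over a range of 9.14e-04 to 0.121 in 13 alternatives. Without ESC replicate 3 the log2 fold change was 0.19 (edgeR adjusted p = 9.14e-04).

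Bcl2l2, which encodes BCL-W (chromosome 14, 54883377 to 54888234, plus strand), was not called. Its levels were 20.6, 20.7 and 19.3 CPM in ESC and 23.99, 26.9 and 20.3 CPM in EpiLC, and EpiLC replicate 3 lay within the ESC range. The log2 fold change was 0.23 (95% interval -0.04 to 0.50, adjusted p = 0.119 by edgeR), an interval that lies within 2-fold in either direction. Without EpiLC replicate 3 it was 0.33 and passed (adjusted p = 0.0436 by edgeR, range 0.0436 to 0.420 over 13 alternatives). The predicted gene Gm20521, which shares 13.3% of the Bcl2l2 exon length on the same strand, had 0 counts in each library.

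3 of the 4 BH3-only members rose. Bcl2l11, which encodes BIM, an activator that binds all anti-apoptotic members (chromosome 2, 128126038 to 128162547, plus strand), was at 16.1, 17.7 and 22.0 CPM in ESC replicates 1 to 3. In EpiLC it was at 51.6, 54.6 and 57.0 CPM, above the ESC range in each library. The mean rose 2.95-fold, from 18.6 ± 3.02 to 54.4 ± 2.69 CPM (1.56 ± 0.12 SE on the log2 scale, edgeR adjusted p = 1.13e-05).

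Bbc3 encodes PUMA, a BH3-only protein known as a p53 target (chromosome 7, 16308393 to 16318205, plus strand). Its levels were 31.6, 25.9 and 31.5 CPM in ESC and 50.1, 52.0 and 53.03 CPM in EpiLC. The groups were well separated, and ESC replicate 3 lay beside replicate 1. The mean rose 1.75-fold, from 29.7 ± 3.29 to 51.7 ± 1.496 CPM (0.81 ± 0.10 SE on the log2 scale, edgeR adjusted p = 1.46e-04).

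Bik, a BH3-only gene whose protein sits largely at the endoplasmic reticulum (chromosome 15, 83526862 to 83544634, plus strand), was the lowest BH3-only member in both states, in CPM and per kilobase. It had 25, 26 and 11 counts in ESC replicates 1 to 3 and 40, 64 and 52 in EpiLC. In CPM these were 1.30, 1.17 and 0.96 against 4.01, 5.47 and 4.64, without overlap. The rise was 4.03-fold (2.01 ± 0.22 SE on the log2 scale, 95% interval 1.51 to 2.51, edgeR adjusted p = 7.79e-05), the second largest of the 10 after Bcl2.

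Bmf, whose protein is known to be tethered to the cytoskeleton until stress frees it (chromosome 2, 118528757 to 118549687, minus strand), was the BH3-only member that was lower. The ESC libraries held 40.4, 39.0 and 23.3 CPM in replicate order and the EpiLC libraries 24.2, 23.95 and 23.8 CPM. ESC replicate 3 was thus below all EpiLC libraries, and the groups overlapped. The difference on the log2 scale was -0.53 ± 0.19 SE (edgeR adjusted p = 0.0399). The call was lost in 8 of 13 alternatives, with adjusted p-values by edgeR of 0.0530 with upper quartile scaling, 0.0578 with library totals, 0.115 and 0.113 without ESC replicates 1 and 2, and 0.1004, 0.0983 and 0.101 without EpiLC replicates 1 to 3, and 0.0557 by limma-voom. Without ESC replicate 3 the value was -0.74 (adjusted p = 1.38e-07 by edgeR).

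**Figure D2:**
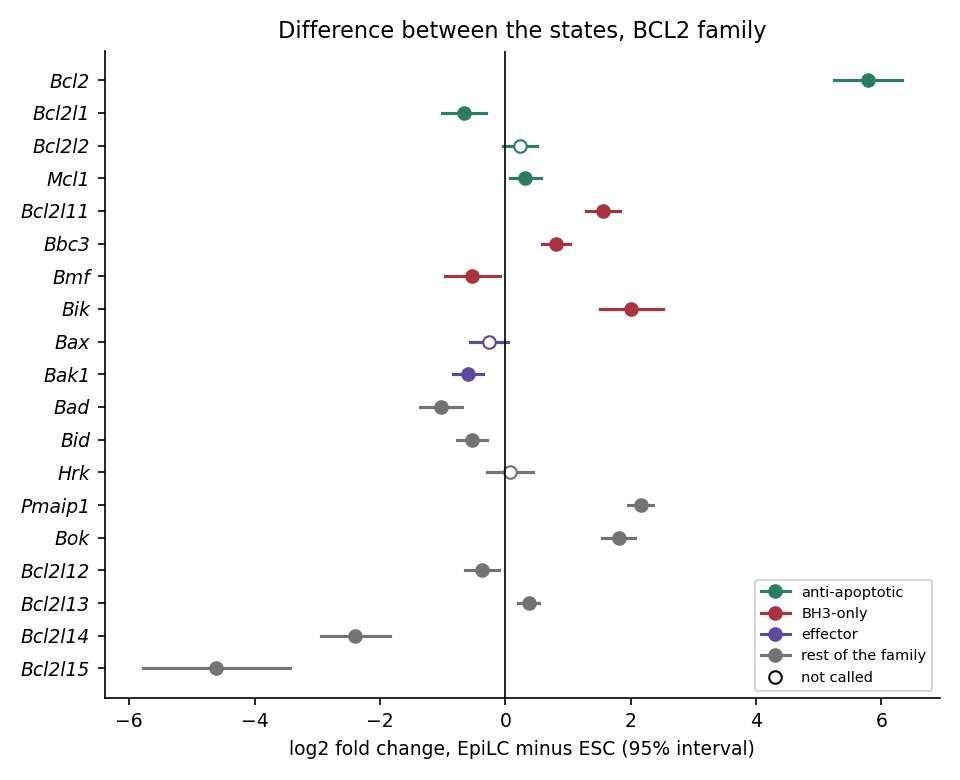
Log2 fold change, EpiLC minus ESC, of the 10 members and of the 9 tested genes of the rest of the family, with 95% intervals from edgeR, with members coloured by role and the rest in grey (n = 3 libraries per state); open circles were not called at an adjusted p under 0.05. Bcl2 lies at 5.78, and the BH3-only genes Bik, Bcl2l11 and Pmaip1 lie between 1.56 and 2.16.

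Neither effector among the members was called higher. Bak1 encodes BAK, which sits in the outer membrane of healthy cells (chromosome 17, 27019810 to 27029009, minus strand). Its levels were 84.4, 85.2 and 67.6 CPM in ESC replicates 1 to 3 and 54.8, 49.7 and 52.9 CPM in EpiLC, all below the ESC. The mean fell 1.51-fold, from 79.1 ± 9.93 to 52.5 ± 2.59 CPM (-0.59 ± 0.10 SE on the log2 scale, edgeR adjusted p = 0.00105). Ggnbp1, on the other strand, overlaps 18.2% of the Bak1 exon length. It stood at 4.06 CPM in ESC and 4.08 CPM in EpiLC, so the share of its reads in the Bak1 count is uncertain.

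Bax encodes the effector that moves from the cytosol to the mitochondrion (chromosome 7, 45461697 to 45466898, minus strand). It was at 112 CPM in both ESC replicates 1 and 2, at 78.9 CPM in ESC replicate 3, and at 80.9, 87.2 and 86.0 CPM in EpiLC. ESC replicate 3 was below each EpiLC library, as it was for Bmf. A predicted gene on the same strand, Gm45808, shares 12.2% of the Bax exon length and had 0 counts in each library. With all libraries Bax was not called (log2 fold change -0.26, 95% interval -0.57 to 0.04, adjusted p = 0.116 by edgeR). Without ESC replicate 3 it was lower in EpiLC (-0.42, adjusted p = 2.88e-06 by edgeR, range 2.88e-06 to 0.283 over 13 alternatives).

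ESC replicate 3 deviated from the mean of ESC replicates 1 and 2 toward the EpiLC mean in 7 of the 10 members, beside 57.7% of all genes tested. The 3 members in which it deviated away were Bcl2l2, Mcl1 and Bik. For Bmf and Bax its log2 difference from those libraries was -0.77 and -0.51, past the EpiLC mean, and for Bcl2 it was 1.27 against 6.21 for the EpiLC. Its summed naive markers (3189 CPM) were the highest of the ESC libraries, and its formative markers (142 CPM, against 138 and 136 in replicates 1 and 2) were at the ESC level. Single markers deviated in both directions. Against replicates 1 and 2, Tfcp2l1 was higher (1307 against 999 and 922 CPM) and Esrrb lower (367 against 518 and 524 CPM). Otx2 was higher (5.23 against 2.28 and 2.43 CPM), while Sox3 (1.22 against 2.85 and 2.52 CPM) and Lef1 (1.31 against 4.15 and 4.28 CPM) were lower.

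Levels of different genes were compared per length, as CPM per kilobase of the union of exons. In ESC the order was Mcl1 (131 ± 19.5), Bax (64.2 ± 12.3), Bak1 (32.8 ± 4.13), Bbc3 (13.97 ± 1.55), Bcl2l1 (9.39 ± 2.00), Bmf (6.51 ± 1.81), Bcl2l2 (4.53 ± 0.17), Bcl2l11 (2.32 ± 0.38), Bik (0.72 ± 0.11) and Bcl2 (0.058 ± 0.032 CPM per kb). The libraries of neighbours in that order overlapped for Bcl2l1 and Bmf and for Bmf and Bcl2l2, and were separate for the others. In EpiLC the order began with Mcl1 (164 ± 4.61) and Bax (53.7 ± 2.11), followed by Bbc3 (24.3 ± 0.70) and then Bak1 (21.8 ± 1.07 CPM per kb). Bbc3 and Bak1 had thus changed places, with no overlap between their libraries in either state. Bcl2l11 (6.77 ± 0.34) had moved from the eighth place to the fifth, ahead of Bcl2l1 (5.996 ± 0.23), Bcl2l2 (5.32 ± 0.75) and Bmf (4.56 ± 0.042 CPM per kb). The EpiLC libraries of Bcl2l1 and Bcl2l2 overlapped, as did those of Bcl2l2 and Bmf. Bik (2.96 ± 0.46) and Bcl2 (2.92 ± 0.31 CPM per kb) came last and overlapped. With the longest transcript as the length, Bcl2l11 (10.8 ± 0.53) and Bcl2l1 (10.7 ± 0.42 CPM per kb) overlapped in EpiLC, Bcl2l1 (16.8 ± 3.56) and Bbc3 (16.4 ± 1.82 CPM per kb) overlapped in ESC in the reverse order, and Bcl2 and Bik changed places in EpiLC while overlapping.

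Mcl1 made up most of the anti-apoptotic level in both states. Its share of the summed CPM per kb of the 4 anti-apoptotic members was 90.4% ± 0.13 in ESC and 92.0% ± 0.57 in EpiLC (SD, n = 3). The share of Bcl2l1 was 6.59%, 6.79% and 5.90% in ESC replicates 1 to 3 and 3.53%, 3.17% and 3.40% in EpiLC. The share of Bcl2 was 0.043% ± 0.031 in ESC and 1.64% ± 0.21 in EpiLC. After its rise, Bcl2 was still the smallest of the 4.

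Among the 4 BH3-only members, Bbc3 held the largest share, 59.4% ± 5.86 in ESC and 63.0% ± 0.61 in EpiLC, with overlapping libraries. The share of Bcl2l11 was 7.92%, 9.76% and 12.1% in ESC replicates 1 to 3 and 17.3%, 17.3% and 17.96% in EpiLC, without overlap. That of Bmf was 30.3%, 32.9% and 19.6% in ESC and 12.4%, 11.6% and 11.4% in EpiLC, also without overlap. Of the effector level, Bax made up 66.0% ± 1.66 in ESC and 71.1% ± 1.78 in EpiLC, and the ratio of Bax to Bak1 per kb went from 1.94 ± 0.14 to 2.47 ± 0.21.

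**Figure D3:**
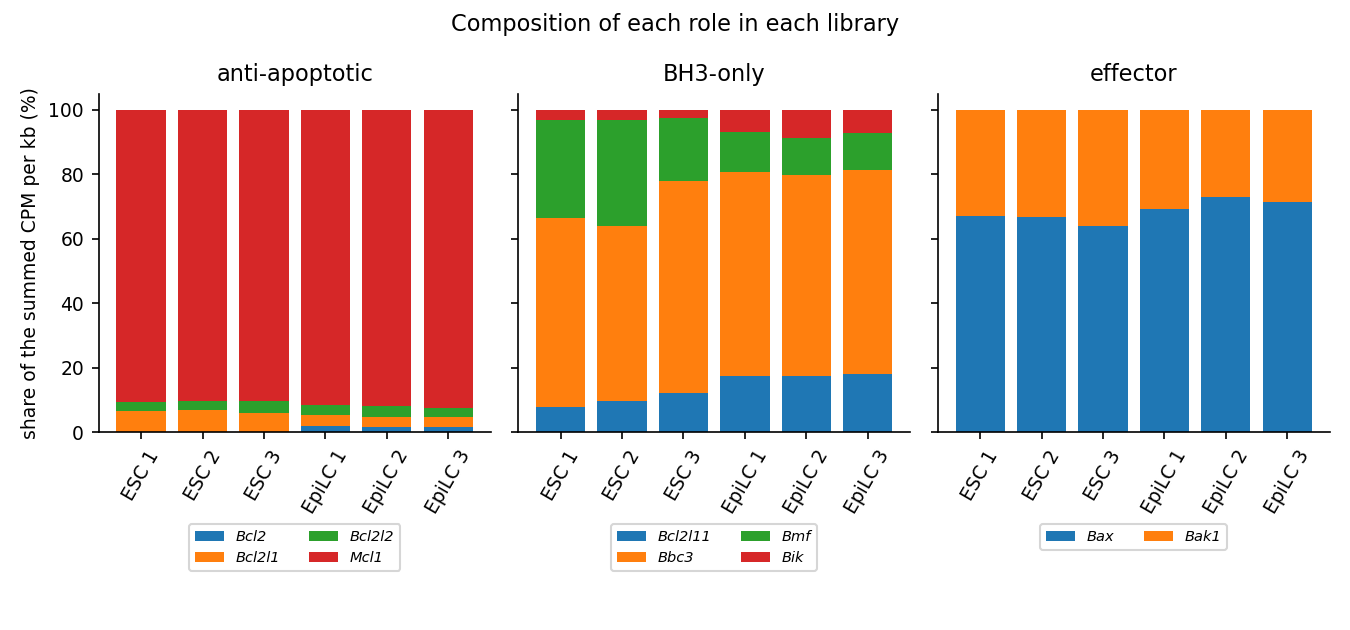
Share of each member (%) in the summed CPM per kb of its role, as stacked bars for each of the 6 libraries, with 1 panel for each role. Mcl1 fills at least 90.2% of each anti-apoptotic bar, and the Bmf share of the BH3-only bars is 19.6% to 32.9% in ESC and 11.4% to 12.4% in EpiLC.

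The summed effector level, as a percentage of the summed anti-apoptotic level, was 67.2%, 68.1% and 65.1% in ESC replicates 1 to 3 and 42.7%, 42.0% and 42.4% in EpiLC. ESC replicate 3 did not stand apart in this ratio, although its effector sum (78.2 CPM per kb) was below those of replicates 1 and 2 (106 and 107). The summed level of the 4 BH3-only members was 16.0%, 14.4% and 18.8% of the anti-apoptotic level in ESC and 21.4%, 21.7% and 21.9% in EpiLC. These sums follow the lengths used and the members chosen, and they carry no test. Pmaip1, a BH3-only gene outside the members, was at 18.4 CPM per kb in ESC and 82.3 in EpiLC. The sums of the 4 BH3-only members were 23.5 and 38.6 CPM per kb. Bok, an effector relative also outside the members, was at 7.89 CPM per kb in ESC and 27.5 in EpiLC. The sums of Bax and Bak1 were 97.1 ± 16.4 and 75.5 ± 1.28 CPM per kb. With these genes included, both percentages would differ. With the longest transcript as the length, the effector percentage was 81.5% ± 2.06 in ESC and 53.6% ± 0.11 in EpiLC, and the BH3-only percentage 18.7% ± 2.77 and 26.0% ± 0.37.

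Genes with the most similar pattern to the 3 members of largest change were taken by Pearson correlation of log2(CPM + 1) over the 6 libraries, among genes with a mean of at least 10 CPM. For Bcl2 they were Fosl2 (r = 0.9996), Phldb1 (0.9995) and Ssbp3 (0.9995). For Bik they were Klc1 (0.9995), Arhgap22 (0.9985) and Ggct (0.9974), and for Bcl2l11 Pls3 (0.9994), Kcnk1 (0.9993) and Fzd3 (0.9992). Pearson r does not measure the size of a change. In the order given, the log2 fold changes of these genes were 4.69, 1.14 and 2.38, beside 5.78 for Bcl2. They were 0.23, 1.23 and 0.63, beside 2.01 for Bik, and 1.30, 3.11 and 1.81, beside 1.56 for Bcl2l11. The r values describe 6 points in 2 groups that share libraries, and 1465 of 9216 candidates had r over 0.95 with Bcl2.

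RefSeq promoter sequences (GRCm38.p6) were matched for 9 of the 10 members, all but Bik. The 250 bases before the start nearest the GENCODE gene start were searched on both strands. The promoter of Bcl2l11 is shown because FOXO factors are known to act on this gene, which rose 2.95-fold. It spans chr2:128125788-128126037 on the plus strand, and the capitals mark the FOXO word GTAAACA.

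Bcl2l11: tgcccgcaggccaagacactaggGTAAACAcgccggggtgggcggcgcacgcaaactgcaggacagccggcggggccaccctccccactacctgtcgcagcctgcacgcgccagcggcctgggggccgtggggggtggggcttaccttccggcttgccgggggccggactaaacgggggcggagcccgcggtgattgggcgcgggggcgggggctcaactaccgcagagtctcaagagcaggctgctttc

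This word was found in 1 of the 9 member promoters and in 3.17% of 32851 RefSeq promoter windows of the same length. Of the FOXO genes, Foxo1 rose from 13.6 ± 2.20 to 26.6 ± 4.07 CPM (log2 fold change 0.98, adjusted p = 6.23e-04 by edgeR) and Foxo4 rose from 74.0 ± 12.3 to 138 ± 2.46 CPM (log2 fold change 0.89, adjusted p = 2.24e-04), both named after their values were seen. Foxo3 (158 and 142 CPM) was not called. Whether any FOXO factor acted on Bcl2l11 in these cells was not tested. The promoter of Bcl2, the member of largest change, is shown with its GC boxes, GGGCGG on either strand, in capitals. It spans chr1:106714291-106714540 and is printed on the minus strand of the genome, which is the strand of the gene.

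Bcl2: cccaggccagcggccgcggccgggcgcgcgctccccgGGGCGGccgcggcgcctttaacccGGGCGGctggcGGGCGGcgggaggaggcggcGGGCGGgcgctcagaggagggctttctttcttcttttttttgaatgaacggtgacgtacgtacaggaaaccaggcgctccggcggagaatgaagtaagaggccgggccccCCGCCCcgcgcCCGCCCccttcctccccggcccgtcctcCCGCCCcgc

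The Bcl2 promoter held 7 GC boxes and was 74.8% G and C. A GC box was present in 6 of the 9 member promoters (Bcl2, Bcl2l2, Mcl1, Bcl2l11, Bbc3 and Bax) and in 32.7% of all windows, and of these Bcl2l2 and Bax were not called and the others were higher. No GC box lay in this window for the 3 lower members, Bcl2l1, Bmf and Bak1. Bik, which was also higher, had no matched promoter and was not searched. Calls were not counted over all genes with and without a GC box, so a link between the word and direction was not tested. The RefSeq start used lay 382 bases from the GENCODE gene start for Bak1 and 1190 bases from it for Bbc3. The E-box word CACGTG was found in the promoter of Bax and in 6.02% of all windows. The word CCAAT was found in those of Bcl2l11 and Bmf and in 33.8% of all windows, and the AP-1 word TGAGTCA in none of the 9 and in 4.46% of all windows. A match is a string of letters, not a bound site, and windows without a match may hold sites outside these bases.

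The rest of the family also changed in both directions. Of 13 further genes, 9 were tested. 3 of them were called higher and 5 lower, and the median log2 fold change was -0.37. Among all genes tested 32.0% were higher and 32.6% lower, and the counts of each list below stand beside these shares. Pmaip1 encodes NOXA, a BH3-only protein that binds MCL1. It rose 4.48-fold, from 50.1 ± 5.65 to 225 ± 4.31 CPM (2.16 ± 0.09 SE on the log2 scale, edgeR adjusted p = 4.90e-07). Bok, an effector relative named after its values were seen, rose 3.51-fold from 14.5 ± 1.76 to 50.7 ± 4.05 CPM (edgeR adjusted p = 3.83e-06). The less studied relatives Bcl2l14 and Bcl2l15 fell, Bcl2l14 from 10.9 ± 2.39 to 2.02 ± 0.37 CPM and Bcl2l15 from 36, 32 and 21 counts in ESC to 1, 1 and 0 counts in EpiLC. The gene Gm43064 shares 20.97% of the Bcl2l15 exon length on the same strand, so these counts may be divided between them. Hrk, another BH3-only gene (7.03 and 7.38 CPM), was not called. The genes not tested were Bcl2l10, with 9 counts over the ESC libraries and 0 over the EpiLC libraries, and the near-identical Bcl2a1a, Bcl2a1b and Bcl2a1d, each at 0 in each library.

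Downstream of the outer membrane lie 13 apoptosome, caspase and released-factor genes, of which 4 were called higher and 3 lower (median 0.16). Casp9, which encodes the initiator caspase of the apoptosome, fell 1.55-fold to 23.1 ± 0.30 CPM. Aifm1, which encodes a flavoprotein of the intermembrane space, fell 2.24-fold from 106 ± 6.97 to 47.3 ± 2.43 CPM. With library totals 7 were called higher, while 2 were called higher with TMM scaling but without ESC replicate 2, EpiLC replicate 2 or EpiLC replicate 3. Leaving out ESC replicate 3 gave 5 lower.

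Of 5 inhibitor of apoptosis genes, which encode proteins that block caspases or their activation, 0 were higher and 3 were lower by edgeR (median -0.28). Beside the 32.0% higher and 32.6% lower of all genes tested, 5 genes are too few to read a direction from. No gene of the list was higher at an unadjusted p under 0.05, and DESeq2 and limma-voom also called 0 higher. Birc5, which encodes survivin, fell from 133 ± 7.54 to 91.1 ± 1.90 CPM, Birc2 from 93.4 ± 5.57 to 76.6 ± 5.74 CPM and Birc3 from 6.01 ± 1.89 to 3.11 ± 1.15 CPM. Xiap (76.6 and 86.5 CPM) was not called with all libraries. Leaving out ESC replicate 3 gave 2 higher genes, Xiap among them (log2 fold change 0.32). Leaving out EpiLC replicate 1, or scaling by library totals, left 1 lower gene. The call of Birc2 was lost without EpiLC replicates 1 and 3 and with library totals (adjusted p = 0.0586, 0.0550 and 0.0535 by edgeR), and that of Birc3 without EpiLC replicates 1 and 2 and with library totals (0.104, 0.132 and 0.0522).

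The death receptor list had 7 tested genes, of which 3 were called higher and 1 lower (median 0.01). Casp8, the initiator caspase of the receptor pathway, rose 2.96-fold to 6.16 ± 0.93 CPM, and Cflar, which encodes its inhibitor FLIP, rose 2.70-fold to 13.7 ± 0.90 CPM. The adaptor gene Tradd fell 1.99-fold to 7.59 ± 1.09 CPM. Leaving out ESC replicate 3 gave 2 lower.

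p53 and 11 of its known targets did not move in a single direction, since 4 of the 12 were called higher and 4 lower (median -0.11). Perp rose 3.62-fold to 38.6 ± 3.88 CPM and Btg2 1.95-fold to 98.5 ± 3.38 CPM, while Cdkn1a, which encodes the cell cycle inhibitor p21, fell 2.03-fold to 18.4 ± 2.08 CPM. Mdm2 (128 and 120 CPM), the ubiquitin ligase of p53, was not called. Trp53 itself, named after its values were seen, was called lower (75.8 ± 13.4 to 52.2 ± 3.62 CPM, -0.54 on the log2 scale, edgeR adjusted p = 0.00639). Of the known p53 targets in the BCL2 family, Bbc3 and Pmaip1 were higher and Bax was not called.

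The list of transcription factors and a host RNA known to act on BH3-only genes had 5 of 8 genes called higher and 1 lower (median 0.94). Over all genes tested the shares were 32.0% higher and 32.6% lower, and the list is small. Jun, an AP-1 factor, rose 4.88-fold to 49.8 ± 3.76 CPM. Mir17hg, the host of the miR-17-92 cluster, whose microRNAs are known to repress Bcl2l11, rose 2.68-fold to 105 ± 2.68 CPM in EpiLC. E2f1 fell 2.36-fold to 11.2 ± 1.38 CPM. Leaving out ESC replicate 2 gave 2 lower.

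Among 5 tested genes for turnover of the MCL1 and BIM proteins, 1 was called higher and 2 lower (median -0.16). Huwe1, which encodes a ubiquitin ligase of MCL1, rose 1.46-fold to 1067 ± 25.5 CPM, and Usp9x, which encodes a deubiquitinase that stabilises MCL1, fell 1.81-fold to 701 ± 14.1 CPM. Btrc, another ligase gene, fell 1.69-fold. Leaving out ESC replicate 3 gave 2 higher. RNA levels give no measure of the proteins.

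Among 8 genes of outer membrane partners and of mitochondrial fission or fusion, 1 was called higher and 3 lower (median -0.13). Dnm1l, which encodes the fission GTPase DRP1, rose 1.59-fold to 548 ± 35.2 CPM. The fusion gene Mfn1 fell 1.93-fold to 74.9 ± 1.97 CPM and the channel gene Vdac1 fell 1.80-fold to 369 ± 23.3 CPM. Vdac2, whose protein is known to recruit BAK and BAX, stood at 286 and 285 CPM (log2 fold change -0.01, 95% interval -0.19 to 0.18). Scaling by library totals gave 2 higher.

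**Figure D4:**
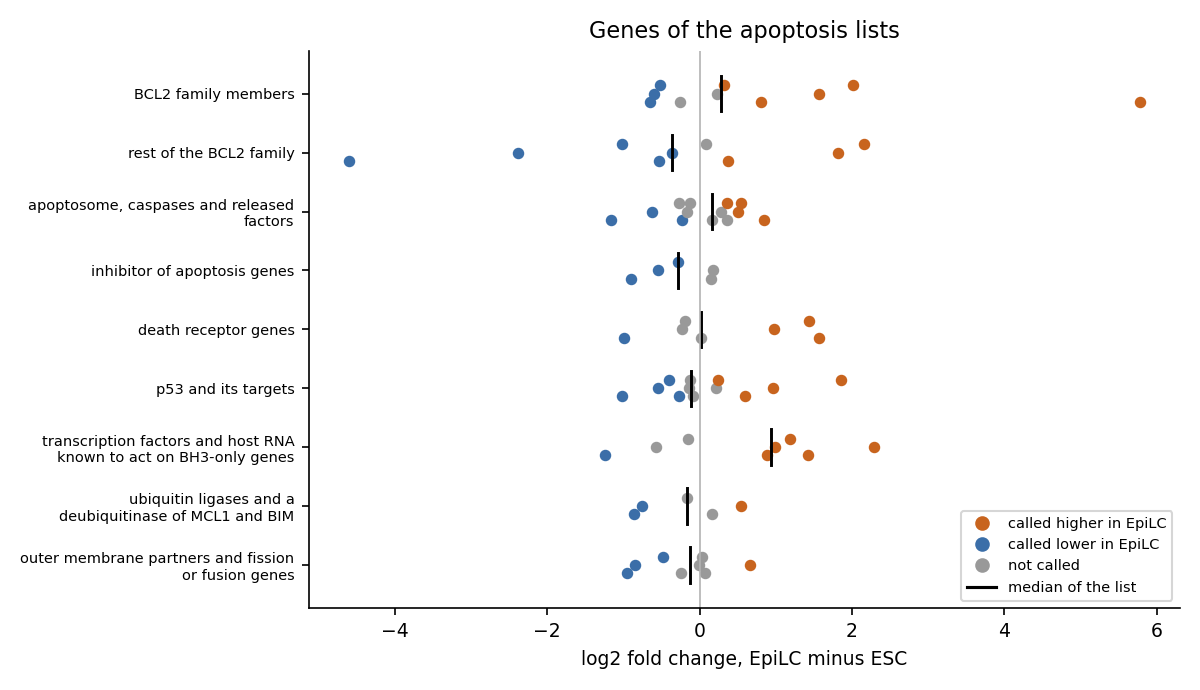
Log2 fold change, EpiLC minus ESC, of each tested gene of the 9 lists, with 1 point per gene (orange called higher, blue called lower, grey not called) and a black line at the median of each list. List medians lie between -0.37 and 0.94, and Bcl2, at 5.78, is the point farthest to the right.

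Taking each further listed gene once, 21 were higher, 22 were lower and 24 were not called of 67 tested, with a median log2 fold change of -0.09, beside the 32.0% higher and 32.6% lower of all genes. The 10 members thus had calls in both directions within a set of apoptosis genes that also did.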

How the data were processed

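RNA of 3 ESC and 3 EpiLC libraries had its ribosomal part depleted and was made into stranded libraries, per the labels' protocols. The table the authors deposited holds raw read counts per Ensembl gene. Per the submitters' processing notes, the tools included cutadapt, STAR, featureCounts and DESeq2, with build mm10. Versions, annotation release, strand setting and handling of multimapping reads were not given in the sources used here. Of 51918 rows, 92 spike-in rows with 0 counts were left out. Of 51826 identifiers, 99.6% matched GENCODE M21 (GRCm38).

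Counts of all genes were fitted with edgeR 4.0.16 in R 4.3.3 (quasi-likelihood, TMM, group as the only term) after filterByExpr (10 counts, 15 in total); tests were two-sided, adjusted by Benjamini-Hochberg over all genes. Standard errors come from the F statistic. On simulated counts of this comparison (14619 genes), 22 of 65 genes changed 1.5-fold, 49 of 66 changed 2-fold and 66 of 66 changed 4-fold were called, and 95.4% of intervals held the true value. These changed genes were a far smaller part of the 14619 than the 64.6% of genes called in the real libraries. The share of changed genes that would be called in the real libraries was not tested. Alternatives used DESeq2 1.42.0, limma 3.58.1, other scalings and filters, a replicate block and each library left out. All 10 members were named; of each other list, up to 3 called genes of largest change with at least 1 CPM in the higher group were named, with uncalled genes as values; Bok, Foxo1, Foxo4 and Trp53 were added after their values were seen, and a result under this rule is not reported here. Members and lists were chosen with earlier results of these data known.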

Additional observations from a re-analysis of the deposited data

How the results depend on the processing

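Of the members, no value changed direction. Over 13 alternatives for each of 10 members, 116 values kept their direction and side of the threshold, 12 lost the call (Mcl1 and Bmf) and 2 gained it (Bcl2l2 and Bax). For 32 further genes, 404 values kept both, 6 lost the call (Birc2 and Birc3) and 1 gained it (Xiap). The other 5 changed sign, in Vdac2 and Hrk, which were called in no setting. Upper quartile scaling gave 0.042 for Vdac2 against -0.01, library totals gave 0.063 and leaving out EpiLC replicate 1 gave 0.007. Leaving out 1 library at a time, Vdac2 ran from -0.101 without ESC replicate 3 to 0.045 when ESC replicate 1 was dropped, and Hrk from -0.058 without EpiLC replicate 2 to 0.191 without EpiLC replicate 3. The cause was not tested. Counts of members higher were 4 or 5 and lower 2 to 4 in all settings. Other scalings moved the median of all genes from 0.01 to at most 0.08.

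With the longest transcript as the length, the share of Mcl1 was 85.6% in ESC and 88.8% in EpiLC, that of Bcl2l11 13.1% and 22.5%, and that of Bax 73.4% and 77.8%, since the lengths themselves differ.

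Replicate numbers are not said to pair libraries, and same-numbered libraries did not deviate together (r = -0.12, 0.01 and -0.18). With the replicate block, 5 members were higher and 3 lower, as without it, and over all genes 4584 were higher and 4650 lower, against 4794 and 4891. Bcl2 rests on 7 to 10 counts in each ESC library.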
